A study of Rattus norvegicus with 24 samples.

Results

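The 7 genes described here, Hspa5, Hsp90b1, Dnajb9, Pdia6, Herpud1, Xbp1 and Psat1, code for chaperones, folding enzymes and regulators of the endoplasmic reticulum, joined by 1 enzyme of serine synthesis. They were taken by symbol from 14218 genes with a probe of a single symbol, and each had exactly 1 such probe. RNA came from rat cortical microvessels, on 8 arrays for each of 3 surgical groups. HAL rats had a portocaval anastomosis, a shunt that sends blood of the portal vein around the liver, and 24 h later a ligation of the hepatic artery. HEP rats had the same anastomosis and 24 h later a total removal of the liver. Sham rats had a fictitious surgery in both steps, and animals were killed between 8 and 12 h after the last step. HAL and HEP are models of acute liver failure, and the groups share their tissue, species and time of killing after the last step. For Sham no interval between the steps is given. Neither strain, sex nor age is given in the sources used here. Whether each array stands for its own rat is not stated, so the p-values below capture only the spread between arrays.

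Proteins that enter the secretory pathway are folded in the endoplasmic reticulum by chaperones and disulfide isomerases. When unfolded proteins build up there, the sensors IRE1, PERK and ATF6 start the unfolded protein response. IRE1 splices the Xbp1 message into that of an active transcription factor, ATF6 is cut to release another, and PERK slows translation while it raises that of ATF4. XBP1 and ATF6 induce chaperones and genes of endoplasmic reticulum-associated degradation, and ATF4 induces genes of amino acid supply such as Psat1. Brain endothelial cells, which form the blood-brain barrier, secrete basement membrane and carry many membrane transporters made by this route.

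The promoters of 4 of the 7 genes carry the letters of a known unfolded protein response element in the 250 bases before the RefSeq start. These sequences are shown because they are the letters through which ATF6, with the factor NF-Y, is known to act on such genes. The ER stress element was searched on both strands as CCAAT, 9 bases of any kind and CCACG, and the ER stress element II as ATTGG, 1 base of any kind and CCACG. Sequences are from RefSeq on assembly GRCr8, 5′ to 3′ on the strand of the gene, with the 2 ends of each element in capitals and 20 bases on either side.
Hspa5, chr3:38452953-38453011, plus strand: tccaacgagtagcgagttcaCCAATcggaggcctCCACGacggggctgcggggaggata
Hsp90b1, chr7:23012431-23012489, minus strand: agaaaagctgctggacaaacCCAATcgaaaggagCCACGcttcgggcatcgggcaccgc
Hsp90b1, chr7:23012327-23012385, minus strand, element reversed: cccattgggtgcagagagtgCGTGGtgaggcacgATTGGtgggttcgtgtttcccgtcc
Xbp1, chr14:84604538-84604596, plus strand: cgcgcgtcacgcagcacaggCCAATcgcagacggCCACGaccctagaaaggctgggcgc
Herpud1, chr19:10614801-10614851, minus strand, ER stress element II: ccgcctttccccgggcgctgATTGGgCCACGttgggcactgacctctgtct

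The element of Hspa5 lay closest to its start, at -43 to -25, and that of Xbp1 at -65 to -47. Hsp90b1 had a pair, at -176 to -158 and, reversed, at -72 to -54, and the ER stress element II of Herpud1 lay at -124 to -114. Both elements are rare as exact letters. The first was found in 22 of 33469 promoters of the table (0.0657%) and the second in 17 (0.0508%). Of 90 promoters of other genes of the pathway, 5 held the first (Calr, Canx, Creld2, Dnajc3 and Ero1b) and 2 the second (Dnajb11 and Hyou1). The core of the amino acid response element, TGATGNAA, through which ATF4 is known to act, was found in 1332 promoters (3.98%) and among the 6 promoters of the 7 genes only in Herpud1, on the reverse strand. The unfolded protein response element core TGACGTGG was in 199 promoters (0.595%) and in 0 of the 6. None of these letters was found in the windows of Dnajb9 and Psat1. A match is a description of letters, and the promoter of Pdia6 was not used here.

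Of each log2 signal the values as provided keep only the decimals. A signal below 10 gives 9 decimals and a signal of 10 or above gives 8. The probes of all 7 genes had 0 cells of 9 digits, so each was taken as 10 or above on all 24 arrays, and its 8 decimals were used as its reading. Of 168 cells of these probes 144 were read, and 24 had lost zeros at their ends (21 of 7 digits and 3 of 6) and were left out. A signal whose first decimal is a zero is always left out in this way. The stretch just past each whole number therefore holds no reading, also where a group lies around it. A reading below 0 or above 1 lies past the next whole number, as seen from the mean of all arrays. Differences between groups are therefore known only up to a whole number, and each is given the shorter way round. A difference whose 95% interval passes 0.5 in size may run the other way. Levels of different genes cannot be set against each other.

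Marker genes of cell types were looked up by the same limit of 10. The counts draw no comparison of levels between cell types, because each probe binds its RNA differently. All 11 markers of endothelium that have a probe were at 10 or above on every array, among them Cldn5, Pecam1 and Flt1, and so were 0 of 7 neuron markers and 0 of 11 markers of microglia and leukocytes. The same held for 4 of 10 pericyte and smooth muscle markers, 3 of 6 astrocyte markers and, by Mbp, 1 of 4 oligodendrocyte markers. HAL array 2 and HEP array 2 had the lowest median deviations from each probe's mean, -0.084 and -0.064, and the other 22 arrays lay between -0.040 and 0.048. In isolated vessels a lower signal from fewer cells of a type and one from less RNA per cell cannot be told apart.

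Among the chaperones, Hspa5 was read lower in both models than in Sham. It codes for BiP, the main HSP70 chaperone of the endoplasmic reticulum, which also holds the sensors inactive. The lowest, median and highest readings were -0.17, 0.23 and 0.36 on 6 HAL arrays, -0.014, 0.28 and 0.37 on 7 HEP arrays, and 0.23, 0.55 and 0.67 on 6 Sham arrays. All 6 HAL and all 7 HEP arrays lay below the Sham mean, and the ranges of both models overlapped with that of Sham, whose lowest array was Sham 3. Means were 0.16 ± 0.21 in HAL (SD, n = 6), 0.21 ± 0.13 in HEP (SD, n = 7) and 0.52 ± 0.17 in Sham (SD, n = 6). HAL minus Sham was -0.36 (95% interval -0.56 to -0.15), which did not pass in limma (adjusted p = 0.0734), and HEP minus Sham was -0.30 (-0.50 to -0.10, adjusted p = 0.117 in limma). Both intervals pass 0.5 in size. HAL and HEP share the Sham arrays, so these are not separate observations of a difference. HAL minus HEP was -0.054 (-0.25 to 0.14).

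In an exact permutation test, 2-sided, of the means taken around the circle of decimals, HEP minus Sham was -0.32 (p = 0.0181) and HAL minus Sham -0.33 (p = 0.149), both without adjustment for the 21 tests of 7 genes in 3 comparisons. The HAL difference of Hspa5 passed in limma without HAL replicate 7 (-0.40, adjusted p = 0.0429) and without Sham replicate 3 (-0.41, adjusted p = 0.0473). With only the HAL and Sham arrays unwrapped and fitted, it was -0.19 (adjusted p = 0.499).

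Hsp90b1, or GRP94, the HSP90 chaperone of the endoplasmic reticulum, did not pass in any comparison. Its readings had a lowest, median and highest value of 0.32, 0.64 and 1.16 on 8 HAL arrays, 0.49, 0.68 and 0.88 on 7 HEP arrays, and 0.53, 0.79 and 0.94 on 6 Sham arrays. HAL arrays reached both lower and higher than those of Sham. The differences were -0.10 for HAL minus Sham (-0.33 to 0.12), -0.075 for HEP minus Sham (-0.31 to 0.16) and -0.028 for HAL minus HEP (-0.24 to 0.19).

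Dnajb9, or ERdj4, a cochaperone of BiP and a target of XBP1, had positive differences from Sham that did not pass. The lowest, median and highest readings were -0.012, 0.40 and 0.85 on 7 HAL arrays, 0.14, 0.37 and 0.78 on 7 HEP arrays, and 0.12, 0.16 and 0.64 on 6 Sham arrays. Of the 6 Sham arrays, 4 lay between 0.12 and 0.16 and the other 2 above 0.55. HAL minus Sham was 0.14 (-0.11 to 0.40, adjusted p = 0.623 in limma), HEP minus Sham 0.13 (-0.12 to 0.39, adjusted p = 0.670) and HAL minus HEP 0.0097 (-0.23 to 0.25).

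**Figure D1:**
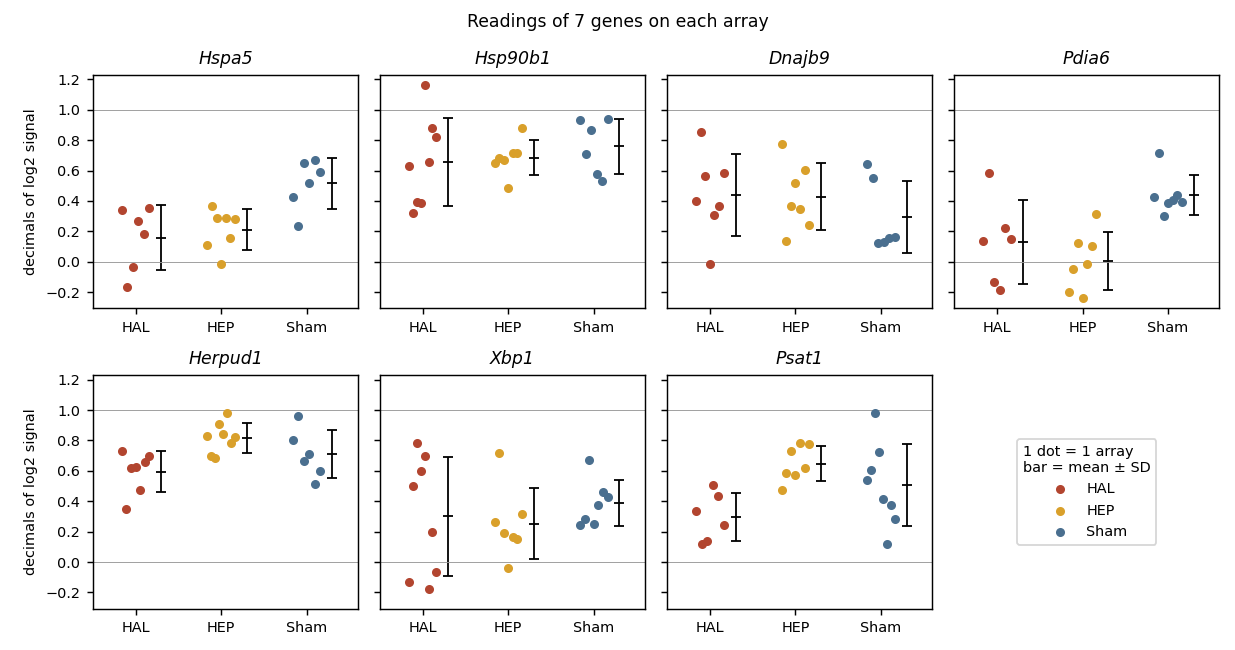
Readings (decimals of the log2 signal, vertical axis) of the 7 genes by group, 1 dot per array, with mean ± SD beside the dots. HAL and HEP dots of Hspa5 and Pdia6 lie mostly below those of Sham, HAL dots of Xbp1 spread over both ends of the scale, and HAL dots of Psat1 and Herpud1 lie mostly below those of HEP.

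Pdia6, a protein disulfide isomerase that also attenuates sensor signalling, was the member with a difference that passed the adjusted threshold in limma, in HEP minus Sham. The exact permutation test of that difference did not fall under 0.05. The lowest, median and highest readings were -0.18, 0.14 and 0.58 on 6 HAL arrays, -0.24, -0.018 and 0.31 on 7 HEP arrays, and 0.30, 0.41 and 0.72 on 7 Sham arrays. Of the HEP arrays 6 of 7 lay below the lowest Sham array, as did 5 of 6 HAL arrays, and HAL array 2 lay within the Sham range. Means were 0.13 ± 0.28 in HAL (SD, n = 6), 0.0068 ± 0.19 in HEP (SD, n = 7) and 0.44 ± 0.13 in Sham (SD, n = 7).

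HEP minus Sham of Pdia6 was -0.43 (SE 0.10, 95% interval -0.65 to -0.22), which passed at an adjusted p of 0.0472 in limma. Its interval passes 0.5 in size, so a difference of the other sign is within it. The call was lost with each of the 16 HEP and Sham arrays left out in turn (differences of -0.43 to -0.26, adjusted p of 0.0618 to 0.390 in limma). It was also lost with short cells read as the nearer value (-0.27, adjusted p = 0.217), with each array centred (-0.28, adjusted p = 0.251), with the circle cut at the largest gap (-0.29, adjusted p = 0.220) and with only the HEP and Sham arrays unwrapped and fitted (-0.15, adjusted p = 0.612). The exact permutation test of circular means, 2-sided, gave -0.42 (p = 0.135). HAL minus Sham was -0.31 (-0.53 to -0.087, adjusted p = 0.139 in limma, and p = 0.0449 unadjusted in the exact permutation test, where the difference was -0.38). With only the HAL and Sham arrays unwrapped and fitted, it was 0.024. HAL minus HEP was 0.12 (-0.10 to 0.35).

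Across the 24 arrays the readings of Pdia6 and Xbp1 were the most scattered around the circle of decimals among the 7 genes. The resultant length, which is 1 where all decimals coincide and near 0 where they spread evenly, was 0.149 for Pdia6 and 0.153 for Xbp1. It was 0.268 for Dnajb9, 0.298 for Psat1, 0.366 for Hspa5, 0.428 for Hsp90b1 and 0.630 for Herpud1, against a median of 0.466 over the 1848 probes tested. Only Herpud1 exceeded that median. With the circle cut at its largest gap the differences of Hspa5 from Sham were the same, -0.36 in HAL and -0.30 in HEP, while that of Xbp1 in HAL was 0.29.

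Herpud1 codes for a membrane protein of endoplasmic reticulum-associated degradation, the route by which misfolded proteins are passed to the proteasome. Its readings had a lowest, median and highest value of 0.35, 0.62 and 0.73 on 7 HAL arrays, 0.68, 0.82 and 0.98 on 8 HEP arrays, and 0.51, 0.69 and 0.96 on 6 Sham arrays. The order of the groups was HEP, Sham, HAL, and neither model differed from Sham beyond the spread. HAL minus Sham was -0.12 (-0.28 to 0.053, adjusted p = 0.513 in limma) and HEP minus Sham 0.11 (-0.054 to 0.27, adjusted p = 0.563).

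Between the models, 6 of 8 HEP arrays of Herpud1 lay above the highest HAL array and 5 of 7 HAL arrays below the lowest HEP array. The difference of HAL minus HEP was -0.22 (SE 0.076, -0.38 to -0.068), which missed the threshold in limma (adjusted p = 0.373). The exact permutation test of the circular means, 2-sided, gave -0.21 (p = 0.00155, unadjusted over the 21 tests). Means were 0.59 ± 0.14 in HAL (SD, n = 7) and 0.82 ± 0.099 in HEP (SD, n = 8).

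Psat1, phosphoserine aminotransferase of serine synthesis, had the same order of groups as Herpud1. Its readings had a lowest, median and highest value of 0.12, 0.29 and 0.51 on 6 HAL arrays, 0.47, 0.62 and 0.78 on 7 HEP arrays, and 0.12, 0.48 and 0.98 on 8 Sham arrays. The Sham arrays spread over the ranges of both models. The difference of HAL minus HEP was -0.35 (SE 0.11, -0.57 to -0.13), which did not pass in limma (adjusted p = 0.370), and its interval passes 0.5 in size. Of the HEP arrays 6 of 7 lay above the highest HAL array, and the exact permutation test, 2-sided, gave -0.35 (p = 0.0303, unadjusted). HAL minus Sham was -0.21 (-0.42 to 0.0048) and HEP minus Sham 0.14 (-0.061 to 0.35), with adjusted p of 0.312 and 0.539 in limma.

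Xbp1, the transcription factor of the IRE1 branch, had no settled direction. The array does not measure its splicing. Its readings had a lowest, median and highest value of -0.18, 0.35 and 0.79 on 8 HAL arrays, -0.039, 0.19 and 0.72 on 7 HEP arrays, and 0.24, 0.38 and 0.67 on 7 Sham arrays. The HAL arrays lay on both sides of the Sham range, 4 below its lowest and 2 above its highest array. HAL minus Sham was -0.088 in limma (-0.36 to 0.18, adjusted p = 0.800) and 0.40 from the circular means (p = 0.0981 in the exact permutation test). The circular mean was 0.77 for the HAL arrays and 0.37 for the Sham arrays. HEP minus Sham was -0.14 in limma (adjusted p = 0.708) and -0.20 from the circular means (p = 0.0466 in the exact permutation test, unadjusted). HAL minus HEP was 0.048 in limma and -0.40 from the circular means.

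**Figure D2:**
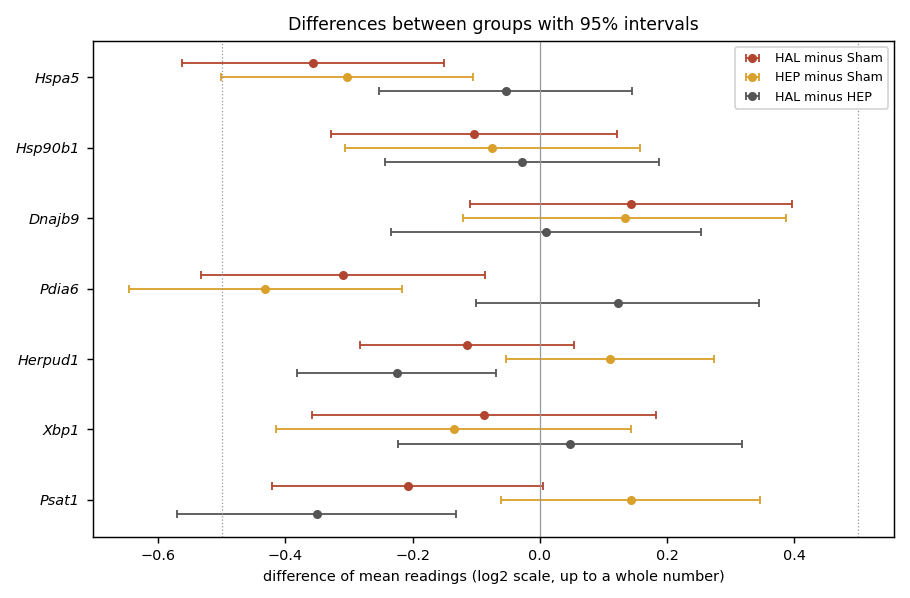
Differences of mean readings (log2 scale, up to a whole number, horizontal axis) of the 7 genes with 95% intervals from limma, for HAL minus Sham, HEP minus Sham and HAL minus HEP. Dotted lines mark differences of 0.5 in size, past which the direction could be the other one. The intervals of Hspa5 and Pdia6 against Sham and those of Herpud1 and Psat1 between the models leave out 0.

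Counted over the 7 genes, 0 passed an adjusted p of 0.05 in limma in HAL minus Sham, 1 (Pdia6) in HEP minus Sham and 0 in HAL minus HEP. Over all 1848 probes tested the shares called were 1.24%, 0.703% and 0% (23, 13 and 0 probes). At an unadjusted p under 0.05 there were 2 of the 7 genes in each comparison, Hspa5 and Pdia6 against Sham in either model and Herpud1 and Psat1 between the models. All probes had 305, 272 and 147 (16.5%, 14.7% and 7.95%). The median difference of the 7 genes was -0.12 in HAL minus Sham, -0.075 in HEP minus Sham and -0.028 in HAL minus HEP, beside -0.023, -0.0086 and -0.020 over all probes. A positive difference was found in 1, 3 and 3 of the 7 genes, and in 42.7%, 46.6% and 42.9% of all probes. These counts depend on where the circle is opened: by circular means they were 2, 3 and 2, with the largest gap 2, 3 and 2, and with only both groups unwrapped 3, 3 and 1.

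The rest of the secretory pathway was read from 7 lists with 104 other genes that have a probe. Of these 29 had a probe at 10 or above on every array, and 27 could be tested, by 30 probes. Another 18 had probes near 10, where a level was assumed from the number of digits. The remaining 57 had probes only below 10. Of the 30 probes 0 passed in limma in any of the 3 comparisons. At an unadjusted p under 0.05 there were 3, 2 and 3, beside 16.5%, 14.7% and 7.95% of all 1848 probes tested. Differences were positive for 12 of 30 probes in HAL minus Sham (median -0.026), for 17 in HEP minus Sham (median 0.0097) and for 4 in HAL minus HEP (median -0.074). Over all 1848 probes 42.7%, 46.6% and 42.9% were positive, with medians of -0.023, -0.0086 and -0.020.

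The translocon and glycosylation list, the machinery that passes new proteins into the endoplasmic reticulum and adds their sugars, had the most tested probes, 12 of 11 genes. Sec61a1, the channel subunit of the translocon, had the smallest p of all 30 probes. Readings of Sec61a1 had a lowest, median and highest value of 0.17, 0.30 and 0.59 on 7 HAL arrays, 0.50, 0.63 and 0.83 on 8 HEP arrays, and 0.29, 0.54 and 0.76 on 7 Sham arrays. The HAL and HEP ranges overlapped only between 0.50 and 0.59. HAL minus HEP was -0.33 (-0.50 to -0.16, adjusted p = 0.131 in limma), HAL minus Sham -0.22 (adjusted p = 0.176) and HEP minus Sham 0.11 (adjusted p = 0.553). In this list 11 of 12 probes had negative differences in HAL minus HEP, with a median of -0.083, and 1 had an unadjusted p under 0.05. Over all 1848 probes 57.1% were negative in that comparison, with a median of -0.020, and 7.95% had an unadjusted p under 0.05.

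Among degradation genes Edem1, a lectin that hands misfolded glycoproteins on for degradation, had a HAL minus Sham difference of 0.36 (0.13 to 0.59, adjusted p = 0.0991 in limma). As unwrapped, its readings ran from 0.91 to 1.23 on the 5 HAL arrays read, 0.42 to 0.81 on 6 Sham arrays and 0.35 to 1.10 on 6 HEP arrays. HEP minus Sham was -0.0026 (adjusted p = 0.993) and HAL minus HEP 0.36 (adjusted p = 0.370). The intervals of both HAL differences of Edem1 pass 0.5 in size, so their direction may be the other one. Sec23b, of the coat of vesicles that leave the endoplasmic reticulum, had a HEP minus Sham difference of 0.32 (0.12 to 0.51, adjusted p = 0.0978 in limma). This interval also passes 0.5 in size.

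Medians of the 6 lists with tested probes lay between -0.076 (translocon and glycosylation) and 0.052 (amino acid genes of the ATF4 branch) in HAL minus Sham. In HEP minus Sham they lay between -0.0016 (transport between endoplasmic reticulum and Golgi) and 0.084 (amino acid genes), and in HAL minus HEP all 6 were below 0, at -0.083 to -0.030. The median over all 1848 probes in HAL minus HEP was -0.020. Eprs1, a tRNA synthetase for glutamate and proline, had a HEP minus Sham difference of 0.25 by 1 probe (adjusted p = 0.203 in limma) and of -0.067 by the other. Canx, the lectin chaperone calnexin, had HAL minus Sham differences of -0.14 and -0.027 by its 2 probes. P4hb, the disulfide isomerase PDI, had a HEP minus Sham difference of 0.16 (adjusted p = 0.587). The lumenal chaperone Dnajc10 had 0.20 in HEP minus Sham (adjusted p = 0.365). In the same comparison Ssr3, of the translocon-associated complex, had 0.18 by 1 probe (adjusted p = 0.414) and 0.057 by the other. Tmx1, a membrane-bound disulfide isomerase, had -0.13 in HAL minus Sham (adjusted p = 0.630), and Ubxn4, of endoplasmic reticulum-associated degradation, 0.072 in HEP minus Sham (adjusted p = 0.800).

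**Figure D3:**
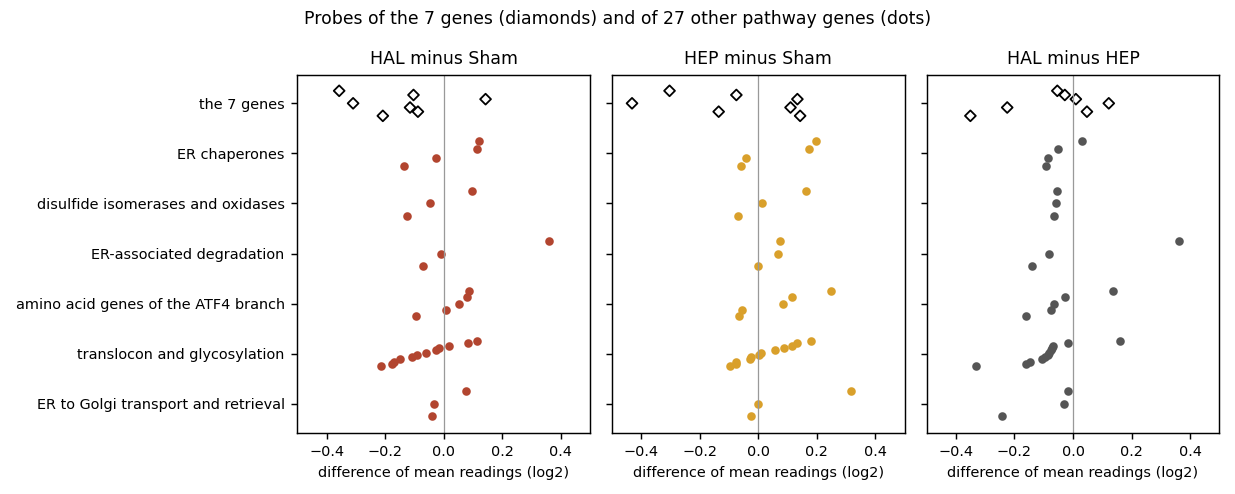
Differences of mean readings (log2 scale) for the 7 genes (diamonds) and for 30 probes of 27 other genes of the secretory pathway by list (dots), in HAL minus Sham, HEP minus Sham and HAL minus HEP. Hspa5 and Pdia6 lie further to the left than all 30 dots against Sham in both models, and most dots of HAL minus HEP lie left of 0.

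With the probes below 10 added, whose integer part is equally unknown, the 7 lists had 129 probes of 90 genes. In limma over 27702 probes 0 of the 129 were called in any comparison, with 7, 10 and 9 at an unadjusted p under 0.05. The shares called over all these probes were 0.152% in HAL minus Sham, 0.0541% in HEP minus Sham and 0% in HAL minus HEP. At an unadjusted p under 0.05 in limma there were 3228, 2509 and 1852 of them (11.7%, 9.06% and 6.69%). Eif2ak3, which codes for the sensor PERK, had -0.35 in HAL minus Sham (-0.55 to -0.15, adjusted p = 0.134) and -0.30 in HEP minus Sham (-0.49 to -0.096, adjusted p = 0.261). The HAL interval passes 0.5 in size. Sdf2l1, a cofactor of BiP, had -0.31 in HAL minus Sham (adjusted p = 0.227) and -0.30 in HEP minus Sham (adjusted p = 0.303). Both intervals of Sdf2l1 pass 0.5 in size.

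Of the other genes with the smallest p of a list in this fit, Txndc5, a disulfide isomerase, had -0.23 in HAL minus Sham (adjusted p = 0.288), and the oxidase Ero1b had -0.22 in HEP minus Sham (adjusted p = 0.632). In HEP minus Sham a further probe of Eprs1 had 0.31 (adjusted p = 0.248), the degradation lectin Erlec1 0.27 (adjusted p = 0.403) and the translocon subunit Sec61g -0.29 (adjusted p = 0.482). Kdelr2, a receptor that returns escaped chaperones, had -0.18 in HAL minus Sham (adjusted p = 0.709). In HAL minus HEP the tRNA synthetase Wars1 had -0.28 (adjusted p = 0.555), the BiP exchange factor Sil1 -0.24 (adjusted p = 0.765) and the transcription factor Atf3 0.22 (adjusted p = 0.819). A probe of the disulfide isomerase Pdia3 below 10 had 0.22 (adjusted p = 0.777), while its probe at 10 or above had -0.058. The intervals of Eprs1, Sec61g and Atf3 given here pass 0.5 in size.

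The sensors and transcription factors had no probe at 10 or above on every array, and 4 of them were also read near 10, by a method chosen after the data were seen. There the integer part was assumed to be 9 for cells of 9 digits and 10 for cells of 8 digits, and 2526 probes were fitted in limma. A cell of 9 digits comes only from a signal below 10. A cell of 8 digits can come from a signal of 10 or above. It can also come from one below 10 that lost a zero at an end, which is then misread as above 10. In addition, a signal under 9 or of 11 and above would be misplaced by at least 1. The readings and differences below rest on these assumptions. The shares called over the 2526 probes were 3.72% in HAL minus Sham, 2.18% in HEP minus Sham and 0% in HAL minus HEP (94, 55 and 0 probes). In HAL minus HEP 216 probes had an unadjusted p under 0.05 in limma. Of the 18 pathway genes read, 0, 1 and 0 passed. Differences were positive for 9 of 18 genes in HAL minus Sham, 14 in HEP minus Sham and 2 in HAL minus HEP, with medians of -0.0057, 0.16 and -0.15 beside -0.033, -0.0040 and -0.044 over all probes near 10. Of all probes near 10, 44.5%, 49.3% and 43.4% were positive in these comparisons.

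The gene that passed was Sesn2, a sestrin and ATF4 target that restrains mTORC1 when leucine is scarce, with higher readings in HEP than in Sham. Readings of Sesn2 had a lowest, median and highest value of 9.12, 9.61 and 10.55 on 7 HAL arrays, 9.77, 10.47 and 10.71 on 8 HEP arrays, and 9.12, 9.32 and 10.59 on 8 Sham arrays. The readings span most of the window from 9 to 11. Cells of 8 digits, read as 10 or above, were found on 1 of 7 HAL, 7 of 8 HEP and 2 of 8 Sham arrays. Any of these cells may be a signal below 10 that lost a zero, and the HEP call below rests on this reading. HEP minus Sham was 0.83 (0.38 to 1.29, adjusted p = 0.0455 in limma). The HAL minus HEP difference of -0.82 (-1.30 to -0.35) did not reach it (adjusted p = 0.369 in limma). In HAL minus Sham its difference was 0.011 (adjusted p = 0.993). The HEP call ended without HAL arrays 2 and 5 and Sham array 3 (0.78, adjusted p = 0.101 in limma) and with the replicate block (0.83, adjusted p = 0.0560). It stayed with each array centred (0.85, adjusted p = 0.0432). The arrays left out were only in part those of the lowest median deviations. HAL array 2 had the lowest of all, -0.084, while Sham array 3 had -0.040 and HAL array 5 -0.020. HEP array 2, at -0.064, was kept.

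Atf4 itself, the transcription factor of the PERK branch, had a HEP minus Sham difference of 0.31 (-0.056 to 0.67, adjusted p = 0.447 in limma), with 4 of 7 HAL, 6 of 7 HEP and 4 of 7 Sham arrays at 10 or above. Ero1a, the oxidase that keeps disulfide isomerases oxidised, had readings of 9.75 to 10.39 on 7 HAL arrays, 10.11 to 10.57 on 7 HEP arrays and 9.53 to 10.27 on 5 Sham arrays. Its HEP minus Sham difference was 0.45 (0.11 to 0.78, adjusted p = 0.167 in limma) and its HAL minus Sham difference 0.25 (adjusted p = 0.481). Dnajb11, a cochaperone of BiP, averaged 10.04 ± 0.17 in HAL (SD, n = 7) and 10.07 ± 0.23 in Sham (SD, n = 5). Cebpb, a stress-induced transcription factor, had a HAL minus Sham difference of -0.41 (-1.02 to 0.19, adjusted p = 0.525 in limma). Ppp1r15b, a subunit of the phosphatase that restores translation, had a HAL minus HEP difference of 0.31 (0.0014 to 0.62, adjusted p = 0.581 in limma).

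Slc7a5, the large neutral amino acid transporter of the blood-brain barrier and an ATF4 target, averaged 10.54 ± 0.19 in HAL (SD, n = 6), 10.60 ± 0.26 in HEP (SD, n = 7) and 10.57 ± 0.43 in Sham (SD, n = 7). Its HAL minus Sham difference was -0.022 (-0.40 to 0.35). Mcfd2, a cargo receptor cofactor, averaged 9.79 ± 0.11 in HAL (SD, n = 6) and 10.08 ± 0.21 in HEP (SD, n = 6), a difference of -0.28 (-0.55 to -0.0089, adjusted p = 0.581 in limma). Of the signal peptidase subunit Spcs2, read on only 3 Sham arrays, HAL minus Sham was -0.38 (adjusted p = 0.424) and HAL minus HEP -0.28 (adjusted p = 0.702). The prolyl isomerase Fkbp2 had -0.19 in HEP minus Sham (adjusted p = 0.634), Ssr4 0.24 (adjusted p = 0.547) and the ubiquitin-conjugating enzyme Ube2j1 0.24 (adjusted p = 0.783). Sec24d, a subunit of the vesicle coat that selects cargo, had -0.16 in HAL minus Sham (adjusted p = 0.592).

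**Figure D4:**
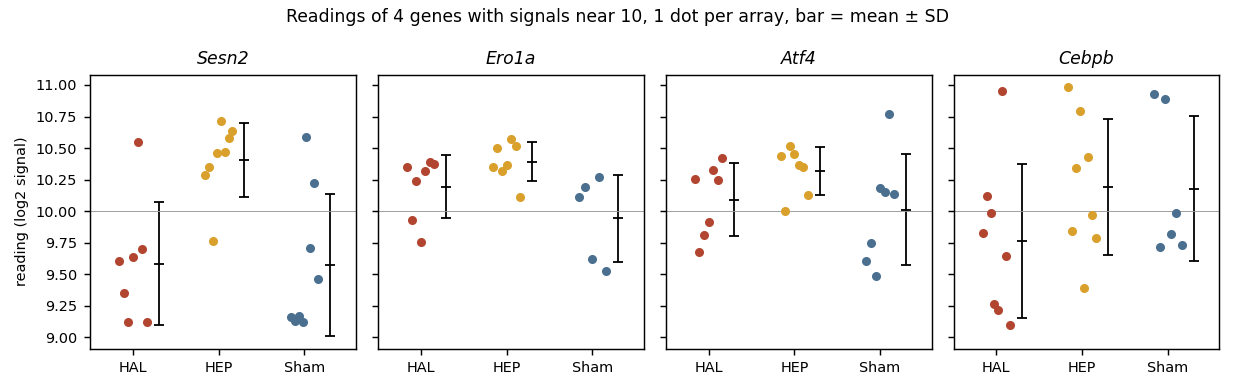
Readings of 4 pathway genes with signals near 10 (log2 signal, vertical axis, not starting at 0) by group, 1 dot per array, with mean ± SD. Sesn2 has 7 of 8 HEP dots above the line at 10, and the 3 groups of Cebpb overlap over most of the range.

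Genes with the pattern most like that of Hspa5 were looked for among 245 other probes read on at least 18 arrays together with it. The highest Pearson correlations were with Mbd2 (r = 0.75 over 18 arrays), Lars1 (0.73 over 19), Nomo1 (0.73 over 19), Sos1 (0.71 over 18) and Serinc3 (0.68 over 18). Of the 7 genes, Herpud1 ranked 112 (r = 0.19 over 18 arrays) and Xbp1 154 (r = 0.030 over 18), and the others shared too few arrays with it. The points share their arrays, and any shift of a whole array enters every pair.

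Carriers of the ER stress element or the ER stress element II with a probe at 10 or above were Hspa5, Hsp90b1, Xbp1, Herpud1 and Canx, by 6 probes. In limma 0 of these were called in any comparison. Their differences were negative for 6 of 6 probes in HAL minus Sham (median -0.11), for 5 of 6 in HEP minus Sham (median -0.067) and for 4 of 6 in HAL minus HEP (median -0.041), beside 57.3%, 53.4% and 57.1% of all 1848 probes. In HAL minus Sham the probe of Xbp1 had 0.40 by circular means, so its sign is not settled. The intervals of Hspa5 against Sham pass 0.5 in size in both models, so its sign is not settled either. Dnajb11, a carrier of the ER stress element II read near 10, had -0.029 in HAL minus Sham, 0.13 in HEP minus Sham and -0.16 in HAL minus HEP. With probes below 10 added, 14 probes of 10 carriers had negative differences in 10, 9 and 8 cases, beside 45.7%, 48.2% and 46.5% of all 27702 probes, and 0 were called.

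**Figure D5:**
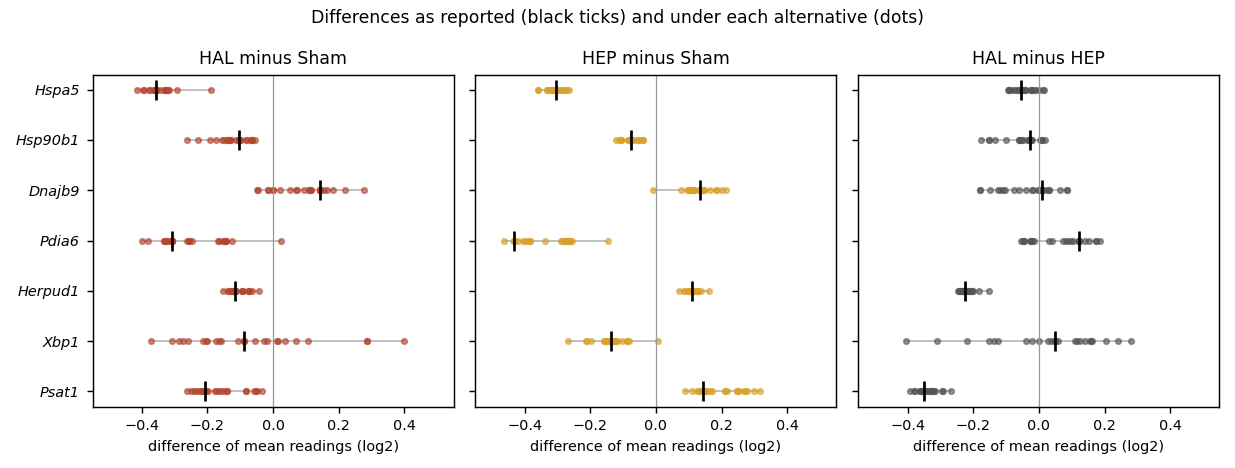
Differences of mean readings (log2 scale) of the 7 genes as reported (black ticks) and under each alternative way of reading, fitting or leaving out arrays (dots, joined by a line). All dots of Hspa5 lie left of 0 against Sham in both models, as do those of Herpud1 and Psat1 in HAL minus HEP, while dots of Xbp1 in HAL minus Sham lie on both sides.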

How the data were processed

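RNA of cortical microvessels was hybridised to 24 arrays, 8 per group, as the labels give them. The authors' values are log2 signals made with RMA, per the submitters' processing notes, with no version named there. As provided, the deposited cells are neither levels nor another standard unit: each was taken as the decimals of a log2 signal of 10 significant digits without its integer part, which no source states. Per the labels' protocols DNA was labelled with a whole-transcript kit, while the probe names belong to a 3' array design, a mismatch left as it is. No genome build is given in the sources used here, and promoters of assembly GRCr8 were matched by symbol for 6 of the 7 genes.

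Of 31099 probes, named by the platform annotation, 1933 had no cell of 9 digits, and 1848 with at least 4 readings in each group were tested. Cells of 8 digits were read and unwrapped around each probe's circular mean over all 24 arrays, without regard to group. The fit used limma 3.58.1 (R 4.3.3) with a mean for each group and all 24 arrays, with Benjamini-Hochberg adjustment over all 1848 probes and a threshold of 0.05. Probes with 1 to 14 cells of 9 digits were fitted separately, with at least 2 readings a group, and a further fit added probes with more such cells, taken as below 10, by their 9 decimals. Exact permutation tests, alternatives and the self-test on simulated data used Python 3.11.15, numpy 2.4.6 and scipy 1.17.1. The planned Fisher's exact test of digit counts had no probe to test, as no member probe has a cell of 9 digits. The 7 genes, the lists and the tests were chosen with earlier results of these data known. Named genes are the 7 members, the called genes or else the gene of the smallest p of each list and comparison, and the 5 genes most like Hspa5. The number of arrays limits the precision.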

Additional observations from a re-analysis of the deposited data

Results flagged for a closer look

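Of 21 groups tested, 7 genes in 3 groups each, 1 held an array far from the others, and chance gives about 1 in 20. It was Pdia6 in Sham, whose highest array, Sham 3, had a reading of 0.72. Its gap to the next array was 0.678 of the whole range of the 7 Sham arrays.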

How the results depend on the processing

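Over the 7 genes 0 were called in HAL minus Sham, and 1 with short cells read as the nearer value (Hspa5), with array weights (Hspa5) and without HAL arrays 2 and 5 and Sham array 3 (Pdia6), with 0 to 1 when arrays were left out in turn. In HEP minus Sham 1 was called (Pdia6), 2 with array weights or without those 3 arrays (with Hspa5), and 0 with short cells read, a cut at the largest gap, each array centred, only both groups compared, a resultant length of at least 0.5 (which leaves Herpud1 alone), probes below 10 added, or any 1 array left out (0). Among the other pathway probes in HEP minus Sham, array weights gave 2 (Eprs1 and Sec23b) and leaving out arrays 0 to 1. The call of Sesn2 ended without the 3 arrays (0).

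Array numbers showed no clear pairing of the groups: deviations of arrays of the same number correlated at -0.13 to 0.18, over 0.1 in 4 of 24 pairs, and 4 arrays correlated best with their own number. Such weak correlations cannot settle whether arrays of the same number belong together. With the replicate block 0 member probes were called in HAL minus Sham, 1 in HEP minus Sham (Pdia6, -0.46, adjusted p = 0.0301 in limma) and 0 in HAL minus HEP, with 1 other pathway probe (Sec23b) and 0 near 10 (Sesn2, 0.83, adjusted p = 0.0560) in HEP minus Sham. In HAL minus HEP the block turned the sign of Hspa5 (0.014) and Dnajb9 (-0.019).

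Other differences that turned sign were uncalled, and the cause was not tested. In HAL minus Sham these were Dnajb9 (-0.014 with short cells read, -0.048 to 0.22 with arrays left out), Pdia6 (0.024 with only both groups) and Xbp1 (0.036 with short cells read, 0.29 with the largest gap and with only both groups, 0.40 by circular means, -0.29 to 0.11 with arrays left out). With the largest gap, Dnajb9 and Xbp1 in HEP minus Sham were -0.0096 and 0.0073. In HAL minus HEP, Dnajb9 was -0.11 with short cells read and -0.13 centred, and Pdia6 -0.045 with the largest gap and with only both groups and -0.014 without the 3 arrays. Xbp1 was -0.040 centred, -0.22 without the 3 arrays, -0.31 with only both groups and -0.40 by circular means. Ranges with arrays left out in HAL minus HEP were -0.093 to 0.011 for Hspa5, -0.10 to 0.020 for Hsp90b1, -0.18 to 0.085 for Dnajb9, -0.053 to 0.18 for Pdia6 and -0.15 to 0.24 for Xbp1. Herpud1 and Psat1 in all 3 comparisons and Hspa5 and Hsp90b1 against Sham kept their sign under every alternative.

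Over all probes the 23 calls in HAL minus Sham became 2 (resultant length) to 72 (array weights), and 9 to 40 with arrays left out. The 13 in HEP minus Sham became 7 to 114, and 2 to 58.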
